A study of Mus musculus with 2 samples.

Results

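The genes described here belong to the sperm axoneme and flagellum, taken by symbol family: Cfap, Dnah, Dnaic, Dnal, Rsph, Drc and Tekt symbols followed by a digit or the letter i, with Spag6, Spag6l, Spag16 and Spag17, and without pseudogene symbols. The rule found 74 genes among 39232 listed in either library, all 74 in both. They were 33 Cfap, 16 Dnah, 2 Dnaic, 3 Dnal, 8 Rsph, 3 Drc, 4 Spag and 5 Tekt symbols. The Dnah symbol Dnah2os is an antisense transcript of Dnah2 and not a dynein. The rule reads gene symbols and uses no measured value. The series holds single-cell RNA libraries from testis of male C57 BL/6 mice that were 5 weeks old at the start and had 1 week of adaptation. One library is labelled as coming from high-fat feeding, which the design text describes as 60% of energy from fat for 12 weeks. The label of the other library names no diet, so it is called the unlabelled-diet library, although the design text describes a second arm kept on maintenance feed for the same 12 weeks. The design text gives 20 mice in all, 10 per diet, and does not say how many entered each library. With 1 library per group no test between them was possible, and all intervals cover counting error only.

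The axoneme is a ring of doublet microtubules around a central pair, bent by rows of outer and inner dynein arms and regulated through radial spokes and nexin links. Tektins and many Cfap proteins line or coat the doublets and hold them together. In the testis these genes are transcribed during meiosis and in round spermatids, ahead of flagellum growth, and loss of many of them gives immotile or malformed sperm. The X-box, bound by RFX factors, and the site of MYBL1 are known elements of promoters of ciliary and spermatocyte genes.

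Promoters of 62 of the 74 genes were found in the RefSeq table for GRCm38.p6, each reaching from 250 bases before to 50 bases after the gene start, and 12 genes were not in it. Of 11 motifs searched on both strands, the X-box palindrome, GTNNCC and its reverse complement GGNNAC with 2 bases between, was present in 7 of the 62, or 11.3%, against 2.26% of 17492 protein-coding promoters. The 7 windows are printed because they carry this motif, in capitals, on the strand of the gene.
Cfap126, chr1:171122933-171123006 (+): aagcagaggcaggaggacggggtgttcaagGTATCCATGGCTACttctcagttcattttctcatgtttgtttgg
Cfap206, chr4:34730207-34730259 (-): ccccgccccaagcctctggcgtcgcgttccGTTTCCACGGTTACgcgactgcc
Cfap298, chr16:90934994-90935067 (-): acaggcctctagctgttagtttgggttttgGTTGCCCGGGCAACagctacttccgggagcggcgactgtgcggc
Cfap77, chr2:29055259-29055316 (-): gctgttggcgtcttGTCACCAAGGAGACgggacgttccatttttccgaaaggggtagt
Rsph9, chr17:46144185-46144214 (-): ggctcaggGTCTCCATGGAGACagcttcta
Spag6l, chr16:16829314-16829337 (-): tgctgtcgGTTGCCCTGGAGACgc
Tekt4, chr17:25471400-25471473 (+): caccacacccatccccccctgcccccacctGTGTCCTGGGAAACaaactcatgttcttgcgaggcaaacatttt
The shorter X-box arm GTTGCC, which overlaps some palindromes, was in 23 of 62 promoters (37.1%), against 14.3% of all promoters. Of the 3 genes with their highest level in spermatogonia, Cfap44 and Dnah10 carried it and Dnah11 did not, and both windows that hold it are shown with that arm in capitals. The place of Dnah11 rests on few counts and differed between the libraries, with elongating spermatids highest in the unlabelled-diet library. Much of the Dnah10 count in spermatogonia came from a single cell in each library, as given below. In Cfap44 the match reads on the opposite strand.
Cfap44, chr16:44394640-44394705 (+): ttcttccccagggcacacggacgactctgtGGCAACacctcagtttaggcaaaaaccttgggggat
Dnah10, chr5:124725035-124725084 (+): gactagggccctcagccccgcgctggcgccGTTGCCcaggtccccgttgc
The MYB core CNGTTG was in 38 of 62 promoters (61.3%), against 37.5% of all promoters, and its form CAGTTG in 17 (27.4%), against 14.2%. The full cAMP response element TGACGTCA, the site of CREM, was in 2 of 62 (3.23%), against 2.54%, and its shorter forms TGACGT in 4 (6.45%), against 9.6%, and TGACG in 12 (19.4%), against 26.2%. The palindrome was in 5 of the 26 matched genes highest in round spermatids and 2 of the 31 highest in spermatocytes, while the arm GTTGCC was in 6 of the 26 and 13 of the 31. The other motifs searched were longer forms of the X-box. These matches are descriptions of the letters in the windows, and binding was not measured.

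The high-fat library held 12661 barcodes and 201842085 UMIs, with a median of 9772 UMIs per barcode, and the unlabelled-diet library 13805 barcodes and 207667609 UMIs, with a median of 13024. After filters and removal of called doublets, 12196 barcodes were kept in the high-fat and 13285 in the unlabelled-diet library. The names of 1507 barcodes occur in both libraries, but they are running numbers and not sequences. Clusters were named from marker genes, so each class name means cells like that stage, and the 74 genes took no part in the clustering. The labels call the cells germ cells, yet 1246 high-fat and 774 unlabelled-diet barcodes were Sertoli-like. Different clusters held most of the diplotene and dividing class: cluster 12 had 1135 high-fat and 16 unlabelled-diet cells, and cluster 7 had 91 high-fat and 1532 unlabelled-diet cells. Median depth in spermatogonia-like cells was 2284 UMIs in the high-fat and 2221 in the unlabelled-diet library, and in pachytene-like cells 21326 in the high-fat and 16195 in the unlabelled-diet library.

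Most of the genes had their highest level in pachytene-like spermatocytes or in round spermatids. Levels are CPM, counts scaled to the UMI total of the summed cells of a class, and each gene is placed by the mean of both libraries. Of 74 genes, 73 had the 50 germ cell counts needed for a place. Rsph4a, a spoke head protein of motile cilia, had 29 counts and was not placed. The highest class was pachytene for 28 genes, diplotene and dividing for 7, leptotene and zygotene for 3 and spermatogonia for 3. It was early round spermatids for 10, middle round for 12, late round for 7 and elongating spermatids for 3. Spermatocytes thus led for 38 of 73 genes (52.1%), against 40.8% of the 22927 genes placed the same way, and round spermatids for 29 (39.7%), against 26.1%. With free RNA subtracted from the classes up to diplotene, spermatocytes led for 31 and round spermatids for 36, so this order turned round. The subtraction took a share of the Sertoli profile, set by protamine and transition protein RNA, and left spermatids untouched. It could only lower spermatocytes against spermatids, so the direction of this shift was fixed in advance. Pachytene alone held 38.4% of the genes and 10.7% of all genes. Spermatogonia held 4.11% of the genes and 25.6% of all genes. The 2 libraries gave the same highest class for 58 of 73 genes, and for 43 the Poisson interval of that class lay above that of the next class in both.

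**Figure D1:**
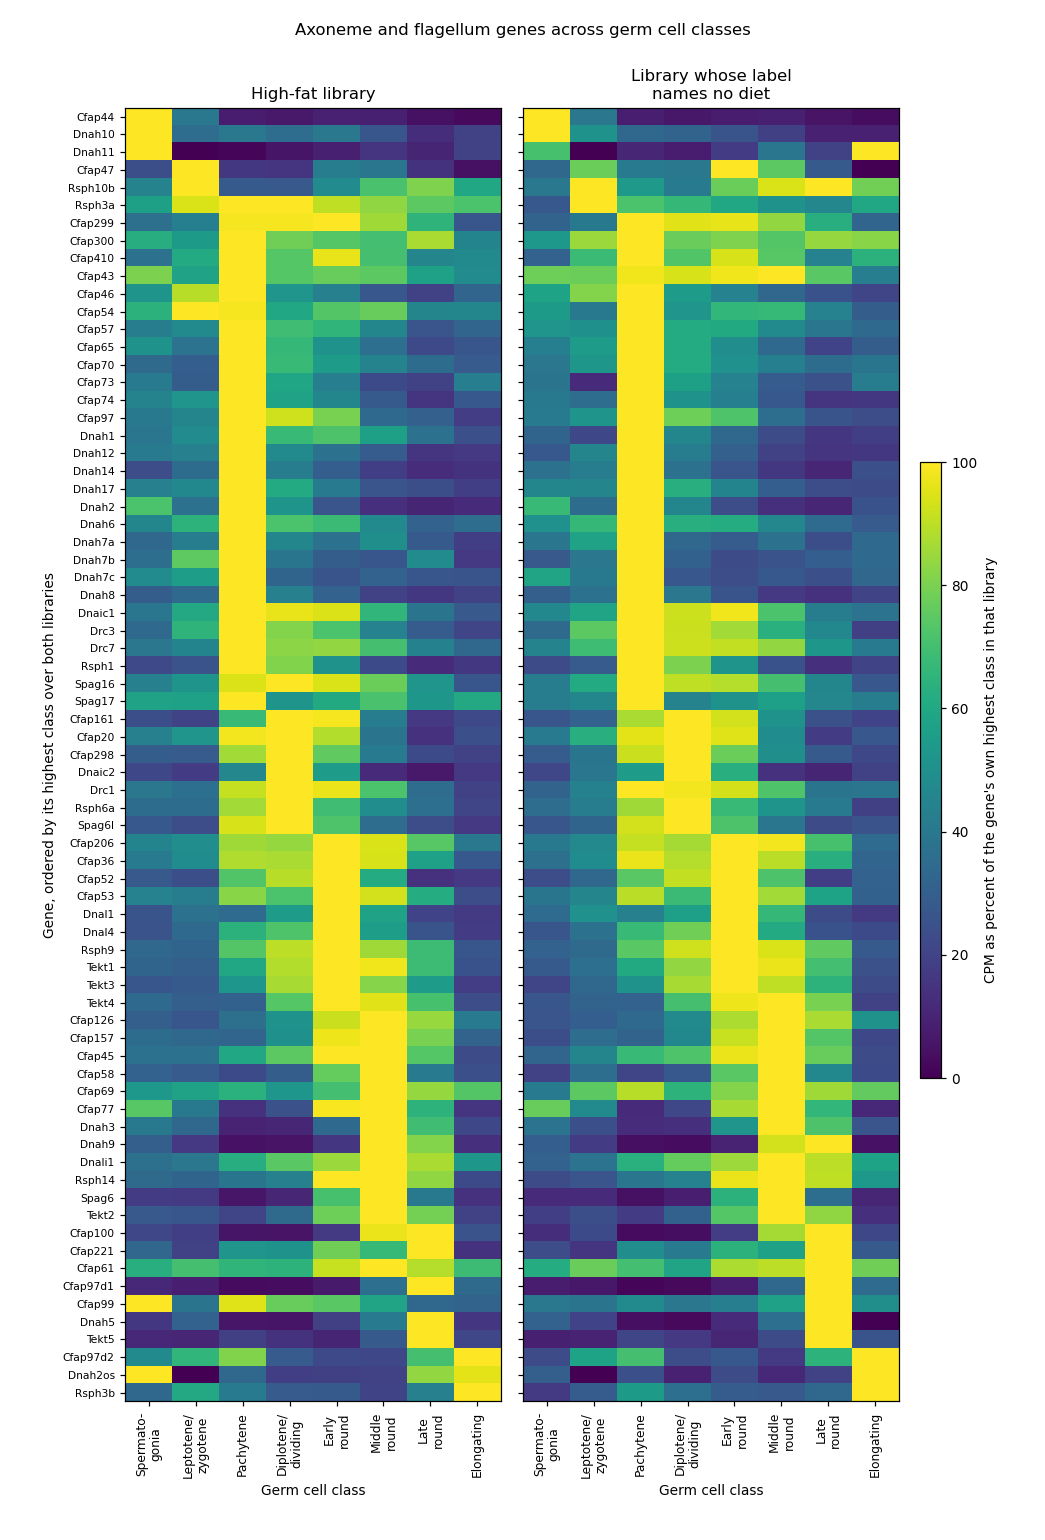
Level of each of the 73 placed genes (rows) in 8 germ cell classes (columns), as percent of the gene's own highest class in the high-fat library (left) and the unlabelled-diet library (right). A block of 28 genes is brightest in pachytene cells, and blocks below it are brightest in successive round spermatid classes; 58 genes have the same brightest class in both panels.

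The Dnah genes encode the dynein heavy chains, the motors of the arms, and most had a pachytene maximum. Of 16 placed Dnah symbols, 10 were highest in pachytene cells. Over all 16, those highest in other classes included, the family median was 37.2% of the own highest level in the diplotene and dividing class. Dnah8, an outer arm chain of sperm, reached 547 CPM in high-fat and 941 CPM in unlabelled-diet pachytene cells. In the diplotene and dividing class it had 239 CPM in the high-fat and 372 CPM in the unlabelled-diet library, so both libraries showed the same drop in the next class. Dnah17, the other outer arm chain of sperm, had 155 CPM in high-fat and 168 CPM in unlabelled-diet pachytene cells.
The inner arm chain Dnah2 had 98.4 CPM in high-fat and 123 CPM in unlabelled-diet pachytene cells. It also had 70.7 CPM in high-fat and 82.5 CPM in unlabelled-diet spermatogonia, above the Sertoli values of 30.7 CPM (high-fat) and 60.6 CPM (unlabelled-diet) in the same libraries. Dnah1, Dnah6, Dnah12, Dnah14, Dnah7a, Dnah7b and Dnah7c shared the pachytene maximum in both libraries. Their pachytene levels ran from 40.0 CPM (Dnah6) to 164 CPM (Dnah14) in the high-fat library and from 49.5 CPM to 194 CPM for the same genes in the unlabelled-diet library. Dnah12 had 60.9 CPM in high-fat and 79.2 CPM in unlabelled-diet pachytene cells. Dnah7a had 67.6 CPM in the high-fat and 67.8 CPM in the unlabelled-diet library there, Dnah7b had 61.1 CPM (high-fat) and 71.6 CPM (unlabelled-diet), and Dnah7c had 59.2 CPM (high-fat) and 62.9 CPM (unlabelled-diet). Dnah7a, Dnah7b and Dnah7c are close copies, so how the counting split their reads is uncertain.

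A second set of heavy chains appeared late. Dnah3, an inner arm chain, had 5.89 CPM in high-fat and 3.13 CPM in unlabelled-diet pachytene cells, but 59.7 CPM (high-fat) and 24.6 CPM (unlabelled-diet) in middle round spermatids of the same libraries. Dnah9, an outer arm chain of motile cilia, had 2.27 CPM in high-fat and 2.18 CPM in unlabelled-diet pachytene cells, against 47.2 CPM (high-fat) and 47.6 CPM (unlabelled-diet) in middle round spermatids. Dnah5, its partner in the arms of motile cilia, was highest in late round spermatids, at 11.4 CPM in the high-fat and 7.44 CPM in the unlabelled-diet library. So the pachytene maximum did not extend to these 3 chains, which were near their lowest there. Dnah11, another cilia chain, had 206 germ cell counts in all and no germ cell class above 3.87 CPM. Dnah2os had 74 counts and was the only one of the 74 symbols highest in a somatic class in both libraries, the other somatic cells, at 2.92 CPM in the high-fat and 7.21 CPM in the unlabelled-diet library.

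Of the 5 smaller chains of the arms, Dnaic1 was highest in pachytene cells, Dnaic2 in the diplotene and dividing class and the 3 light chains in round spermatids. Dnaic1 and Dnaic2 encode the intermediate chains that anchor the outer arm. Dnaic2 had 72.9 CPM in high-fat and 96.7 CPM in unlabelled-diet pachytene cells, and 157 CPM (high-fat) and 175 CPM (unlabelled-diet) in the diplotene and dividing class of the same libraries. By middle round spermatids it was at 19.2 CPM in the high-fat and 24.9 CPM in the unlabelled-diet library. Dnaic1 was flatter, between 99.4 CPM and 105 CPM from pachytene to early round cells in the high-fat library.
Dnal1, an outer arm light chain, had 93.6 CPM in high-fat and 91.9 CPM in unlabelled-diet early round spermatids, against 32.8 CPM (high-fat) and 39.9 CPM (unlabelled-diet) in pachytene cells. Dnal4, a further light chain, also peaked in early round spermatids, at 255 CPM in the high-fat and 223 CPM in the unlabelled-diet library. Dnali1, the inner arm light intermediate chain, peaked in middle round spermatids, at 366 CPM in the high-fat and 318 CPM in the unlabelled-diet library.

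The radial spoke genes did not share a stage: the 7 placed Rsph genes were spread over 6 classes. Rsph1, a spoke head protein, was highest in pachytene cells, at 4747 CPM in the high-fat and 13405 CPM in the unlabelled-diet library. Rsph6a, the spoke head paralog of sperm, was highest in the diplotene and dividing class, at 277 CPM in the high-fat and 318 CPM in the unlabelled-diet library. Rsph9, the third spoke head protein measured, was highest in early round spermatids, at 465 CPM in the high-fat and 466 CPM in the unlabelled-diet library. Rsph14 was highest across early and middle round spermatids. In the middle class it had 57.5 CPM in the high-fat and 50.9 CPM in the unlabelled-diet library. Rsph3a, which encodes a spoke stalk protein, had a highest class that differed between the libraries. It had 45.2 CPM in high-fat and 53.9 CPM in unlabelled-diet leptotene and zygotene cells, from 63 high-fat and 36 unlabelled-diet counts, and 48.0 CPM in high-fat and 38.7 CPM in unlabelled-diet pachytene cells. Rsph3a and Rsph3b are close copies, so how the counting split their reads is uncertain.
The 3 Drc genes of the nexin link, which joins neighbouring doublets, had a broad plateau. Their median stayed at 88.6% of the own highest level in the diplotene and dividing class and 88.1% in early round spermatids. Drc3 had 127 CPM in high-fat and 87.9 CPM in unlabelled-diet pachytene cells, Drc7 had 50.9 CPM (high-fat) and 78.2 CPM (unlabelled-diet), and Drc1 had 118 CPM (high-fat) and 164 CPM (unlabelled-diet).

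The central pair genes split by paralog. Spag6 and Spag6l are close copies, whose reads the counting could have split, yet their profiles differed. Spag6l had 356 CPM in high-fat and 415 CPM in unlabelled-diet pachytene cells, and 135 CPM (high-fat) and 175 CPM (unlabelled-diet) in middle round spermatids. Spag6 had 23.4 CPM in high-fat and 16.6 CPM in unlabelled-diet pachytene cells, and 375 CPM (high-fat) and 364 CPM (unlabelled-diet) in middle round spermatids. Thus Spag6l was lower and Spag6 higher in the later class, in both libraries. Spag17, a large central pair protein, had 199.8 CPM in high-fat and 252 CPM in unlabelled-diet pachytene cells and 103 CPM (high-fat) and 112 CPM (unlabelled-diet) in the next class. Spag16, its partner, stayed between 192 CPM and 247 CPM from pachytene to middle round cells in the high-fat library.

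The tektins, filament proteins inside the doublets, were genes of round spermatids: all 5 had their highest class there. The family median was 31.7% of the own highest level in pachytene cells, 100% in early round and 97.4% in middle round spermatids. Tekt1 had 1091 CPM in high-fat and 1167 CPM in unlabelled-diet early round spermatids, against 656 CPM (high-fat) and 708 CPM (unlabelled-diet) in pachytene cells. Tekt2 had 841 CPM in high-fat and 863 CPM in unlabelled-diet middle round spermatids, against 176 CPM (high-fat) and 151 CPM (unlabelled-diet) in pachytene cells. Both were highest late, but the pachytene level of Tekt1 was already above its spermatogonial level, while that of Tekt2 was not. The spermatogonial levels of both genes and the pachytene level of Tekt2 were under their Sertoli levels in both libraries. Such levels are not read here as expression, and the contrast of Tekt1 and Tekt2 rests on them. Tekt3 and Tekt4 followed Tekt1, with 353 CPM and 588 CPM in high-fat early round spermatids and 373 CPM and 716 CPM in those of the unlabelled-diet library. Tekt5, a tektin of the sperm flagellum, stood apart with 282 CPM in high-fat and 286 CPM in unlabelled-diet late round spermatids, against 79.9 CPM (high-fat) and 65.0 CPM (unlabelled-diet) in the middle class. It was the only tektin with its highest class there.

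**Figure D2:**
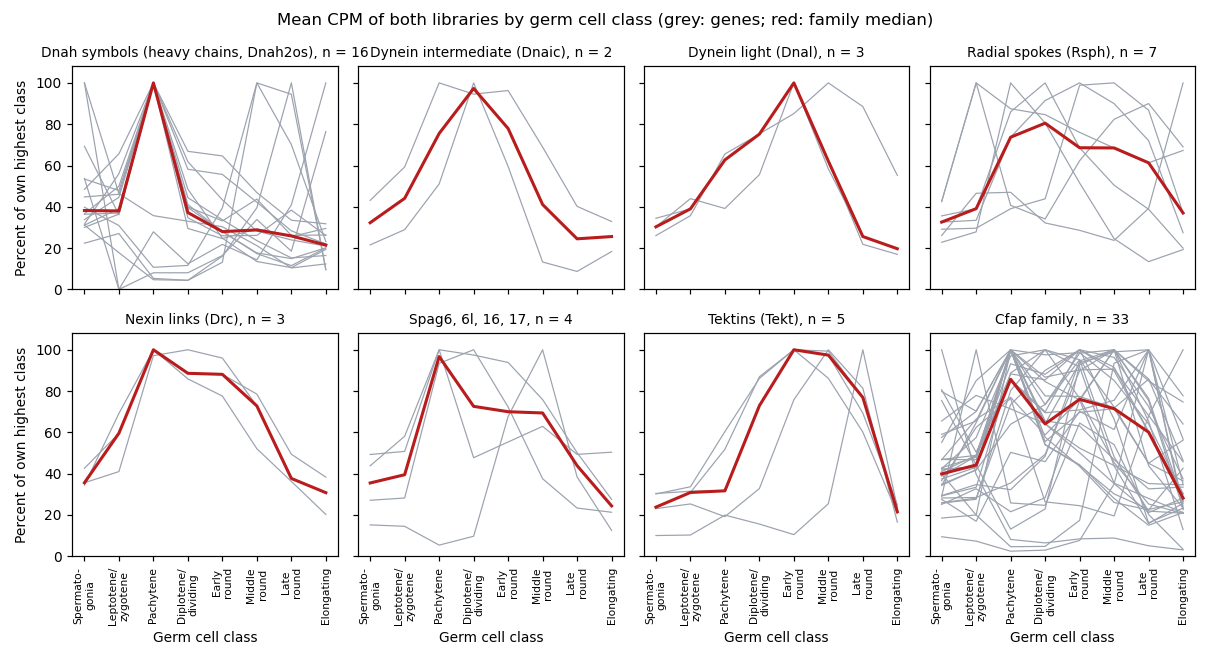
Mean CPM of both libraries in 8 germ cell classes as percent of each gene's own highest class, in 8 panels by family, with genes in grey and the family median in red. The Dnah median is 100% in pachytene cells and 37.2% in the diplotene and dividing class, while the tektin median reaches 100% in early round spermatids.

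The 33 Cfap genes, a collection of proteins named for their place in cilia and flagella, covered every class. Their highest class was in spermatocytes for 16 and in round spermatids for 15. Cfap298, needed for dynein arm assembly, had 1036 CPM in the high-fat and 898 CPM in the unlabelled-diet library in the diplotene and dividing class. Cfap97 was highest in pachytene cells, at 459 CPM in the high-fat and 581 CPM in the unlabelled-diet library. Cfap36 and Cfap206 had broad profiles with a maximum in early round spermatids. Cfap36 had 1018 CPM in the high-fat and 1356 CPM in the unlabelled-diet library there, and Cfap206, a radial spoke protein, had 453 CPM (high-fat) and 465 CPM (unlabelled-diet). Cfap299 varied little from pachytene to early round cells, at 332 CPM to 336 CPM in the high-fat and 380.1 CPM to 398 CPM in the unlabelled-diet library.
Among proteins of the doublet lumen, Cfap45 and Cfap126 were highest in middle round spermatids. Cfap45 had 386 CPM in the high-fat and 452 CPM in the unlabelled-diet library there, and Cfap126 had 384 CPM (high-fat) and 423 CPM (unlabelled-diet). Cfap161, also of the lumen, was highest earlier, in the diplotene and dividing class, at 308 CPM in the high-fat and 561 CPM in the unlabelled-diet library. The latest Cfap gene with a high count was Cfap97d1, with 524 CPM in high-fat and 520.1 CPM in unlabelled-diet late round spermatids, against 15.9 CPM (high-fat) and 9.83 CPM (unlabelled-diet) in pachytene cells.

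Levels before pachytene were mostly no higher than in Sertoli cells, which lack a motile axoneme. The median ratio of a gene's level in spermatogonia to its level in Sertoli cells was 0.748 in the high-fat and 0.564 in the unlabelled-diet library. In leptotene and zygotene cells the median ratio was 0.809 in the high-fat and 0.705 in the unlabelled-diet library. A level at or under that in Sertoli cells is not read here as expression, because droplets also take up free RNA. Protamine and transition protein RNA in spermatogonia stood at 43.8% of the Sertoli level in the high-fat and 52.1% in the unlabelled-diet library, and in leptotene and zygotene cells at 38.8% in the high-fat and 44.9% in the unlabelled-diet library. These shares are below the median ratios of the axoneme and flagellum genes, and how much of their early level is free RNA was not tested. Only Cfap44, Dnah10 and Cfap77 were more than 1.5 times the Sertoli level in spermatogonia of both libraries, and Cfap44, Cfap97d2 and Rsph10b in leptotene and zygotene cells of both. The Cfap97d2 values rest on 6 high-fat and 2 unlabelled-diet counts there, too few to separate from the Sertoli level. Rsph10b had 38.7 CPM in high-fat and 35.9 CPM in unlabelled-diet leptotene and zygotene cells, against 15.9 CPM in high-fat and 19.5 CPM in unlabelled-diet Sertoli cells. It shares 85 exonic bases with Pms2 and 325 with Gm42421 on the same strand, so how the counting split their reads is uncertain.

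Cfap44, part of the complex that tethers inner dynein arms to the doublet, was highest by far in spermatogonia. It had 604 CPM in high-fat and 959 CPM in unlabelled-diet spermatogonia, then 242 CPM (high-fat) and 379 CPM (unlabelled-diet) in leptotene and zygotene cells. In pachytene cells it was down to 46.1 CPM in the high-fat and 81.3 CPM in the unlabelled-diet library, close to the Sertoli values of 39.0 CPM (high-fat) and 73.2 CPM (unlabelled-diet). The cell holding most Cfap44 counts carried 3.34% of them in high-fat and 1.55% in unlabelled-diet spermatogonia, so many cells contributed. Thinned to 1000 UMIs, 34.1% of high-fat and 48.7% of unlabelled-diet spermatogonia had a Cfap44 UMI, against 3.77% of high-fat and 6.46% of unlabelled-diet Sertoli cells. Unthinned, the shares were 54.2% of high-fat and 66.0% of unlabelled-diet spermatogonia, and 7.62% of high-fat and 13.9% of unlabelled-diet Sertoli cells. Median depth in Sertoli cells was 1552 UMIs in the high-fat and 1363 in the unlabelled-diet library. Spermatogonia with more UMIs of undifferentiated than of differentiating markers had 928 CPM in the high-fat and 1588 CPM in the unlabelled-diet library. Those with more differentiating marker UMIs had 574 CPM in the high-fat and 875 CPM in the unlabelled-diet library, with intervals below the first pair.

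Dnah10, the heavy chain of an inner arm, had 54.3 CPM in high-fat and 126 CPM in unlabelled-diet spermatogonia. A single cell held 34.9% of those counts in the high-fat and 48.0% in the unlabelled-diet library, and without it the levels were 35.6 CPM (high-fat) and 65.8 CPM. Cfap77, a protein of the doublet, had 23.6 CPM in high-fat and 26.6 CPM in unlabelled-diet spermatogonia. Without the cell holding most counts it had 20.2 CPM in the high-fat and 24.3 CPM in the unlabelled-diet library, against 11.2 CPM in high-fat and 16.9 CPM in unlabelled-diet Sertoli cells, so in the unlabelled-diet library it was then under 1.5 times the Sertoli level. Its second and higher maximum was in middle round spermatids, at 31.8 CPM in the high-fat and 34.7 CPM in the unlabelled-diet library.

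**Figure D3:**
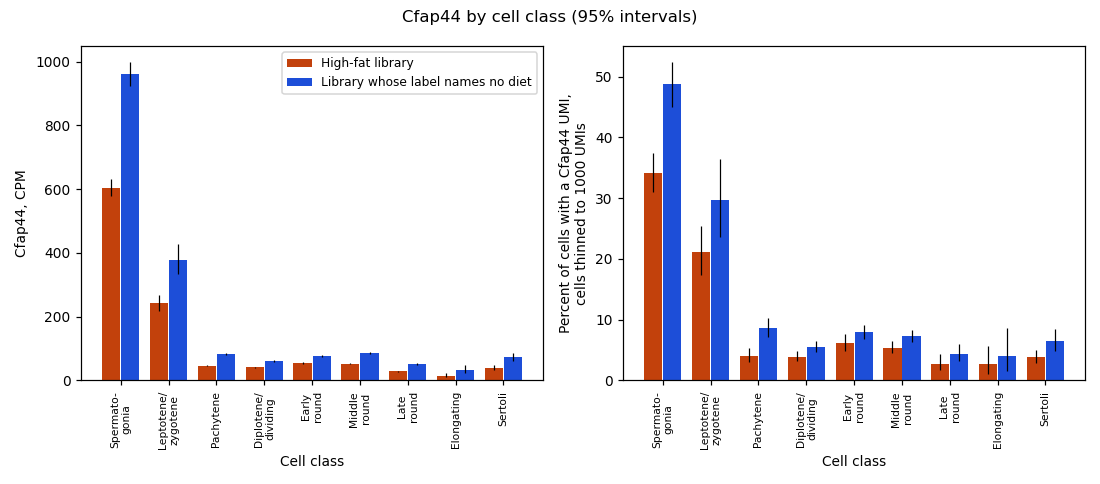
Cfap44 in 8 germ cell classes and Sertoli cells, as CPM with Poisson intervals (left) and as percent of cells with a UMI after thinning to 1000 UMIs with binomial intervals (right), high-fat library in orange beside the unlabelled-diet library in blue. Spermatogonia stand highest in both panels and both libraries, at 604 CPM (high-fat) and 959 CPM (unlabelled-diet).

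Between the libraries, 72 of the 74 genes had 50 or more counts over both libraries in at least 1 germ cell class. Of these, 58 stayed within 2-fold in every such class and 14 were past it in some class, against 33.8% past it in some class among 19819 genes measured the same way. Dnah2os and Rsph4a had no class with enough counts. Of 528 gene and class pairs, 14 were past 2-fold higher and 23 past 2-fold lower in the high-fat library. With free RNA subtracted from the classes up to diplotene, 35 pairs were higher and 18 lower, so the balance of higher and lower pairs turned round. In pachytene cells 1 of 70 genes was past 2-fold higher and 2 lower, against 10.2% and 5.24% of all 15138 genes. In spermatogonia 2 of 66 were higher and 3 lower, against 6.03% and 4.35%. In leptotene and zygotene cells 1 of 59 was higher and 6 were lower, against 5.67% and 2.25%. In the diplotene and dividing class 1 of 70 was higher and 2 were lower, against 10.5% and 6.07%, with most cells of the 2 libraries in different clusters as given above.
In round spermatids the counts were again small. In early round cells 2 of 71 were higher and 1 lower, against 9.1% and 6.78% of all genes. In middle round cells 3 of 72 were higher and 3 lower, against 10.6% and 7.51%. In late round cells 3 of 71 were higher and 3 lower, against 8.46% and 7.99%. In elongating spermatids 1 of 49 was higher and 3 were lower, against 6.3% and 2.97%. Outside the germ cells, 2 of 66 were higher and 6 lower in Sertoli cells, against 11% and 3.31%, and 1 of 55 was higher and 3 lower in other somatic cells, against 6.16% and 4.63%.

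The median log2 ratio of the genes, high-fat over unlabelled-diet, was slightly under 0 in every class but spermatogonia, and 2 of these signs depended on the processing. It was 0.04 in spermatogonia, -0.31 in leptotene and zygotene cells, -0.13 in pachytene cells and -0.08 in the diplotene and dividing class. It was -0.08 in early, -0.14 in middle and -0.15 in late round spermatids and -0.25 in elongating spermatids. Under the alternatives the spermatogonia median ran from -0.094 to 0.58, and the leptotene and zygotene median from -0.37 to 0.13. The medians of all genes in those classes lay between -0.0033 and 0.087. In Sertoli cells the same genes had a median of -0.42, against 0.08 for all genes, so the offset was also present in cells that lack a motile axoneme. Its part in the germ cell values was not tested.

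**Figure D4:**
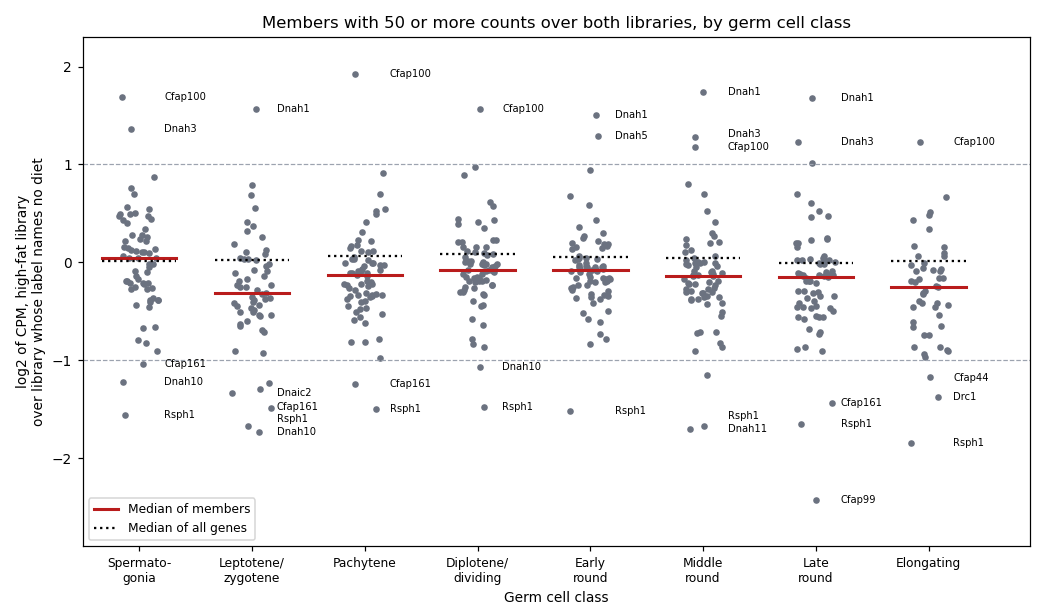
log2 ratio of CPM, high-fat over unlabelled-diet library, of the genes with 50 or more counts in each of 8 germ cell classes, with the median of these genes in red and of all genes dotted. Most points lie between the dashed lines at 2-fold; Rsph1 lies below in all 8 classes, and Cfap100, Dnah1 and Dnah3 lie above in several.

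Rsph1 was the only one of the 74 genes past 2-fold in all 8 germ cell classes. It had 4747 CPM in high-fat and 13405 CPM in unlabelled-diet pachytene cells, a ratio of 0.354 (95% interval 0.352 to 0.356). In middle round spermatids it had 1068 CPM in the high-fat and 3391 CPM in the unlabelled-diet library, a ratio of 0.315 (0.312 to 0.318). An Rsph1 UMI was found in all 1108 high-fat and all 1419 unlabelled-diet pachytene cells, and in 89.0% of high-fat and 99.9% of unlabelled-diet Sertoli cells. The log2 ratio ran from -1.85 in elongating spermatids to -1.48 in the diplotene and dividing class. Of 3923 genes measured in all 8 classes, 0.433% were past 2-fold lower in all of them. Of the 47 axoneme and flagellum genes measured in all 8 classes, 0 were past 2-fold higher in all, against 0.994% of all genes. With free RNA subtracted, the log2 ratio was -0.15 in leptotene and zygotene cells and no Rsph1 value remained in spermatogonia, while the other 6 classes ran from -1.85 to -1.42. The difference was also present in Sertoli cells, at 1656 CPM in the high-fat and 7179 CPM in the unlabelled-diet library. In both libraries Rsph1 was under this Sertoli level in spermatogonia, leptotene and zygotene cells, and middle round, late round and elongating spermatids. In early round spermatids it was under it in the unlabelled-diet library only. Levels under the Sertoli level are not read here as expression. Without Rsph1 the summed level of the genes in pachytene cells was 10105 CPM in the high-fat and 12036 CPM in the unlabelled-diet library.

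Another 5 genes were past 2-fold in at least 3 germ cell classes. Cfap161 and Dnah10 were lower, and Cfap100, Dnah1 and Dnah3 were higher, in the high-fat library, except that Cfap100 in the diplotene and dividing class had a log2 ratio of 1.57 as reported and -0.36 without centring of the libraries. Of 15735 genes measured in at least 3 classes, 8.05% were past 2-fold higher and 5.5% lower in 3 or more. Not every class held: Dnah10 in spermatogonia had a log2 ratio of -0.89 without the cell holding most counts in each library, which leaves it 2 classes. Dnah3 in spermatogonia had no value with free RNA subtracted, which also leaves 2 classes. Cfap161 in leptotene and zygotene cells had -0.087 with free RNA subtracted, against -1.49 as reported. Cfap161 and Cfap100 in spermatogonia, and Cfap161 and Dnah1 in leptotene and zygotene cells, were under the Sertoli level in both libraries. Dnah3 in spermatogonia was at 1.08 times it in the high-fat and 0.495 times in the unlabelled-diet library. Cfap161 was found in 17.3% of high-fat and 35.1% of unlabelled-diet Sertoli cells, and Cfap100 in 6.42% (high-fat) and 2.07% (unlabelled-diet). Dnah10 was also in a lower high-fat share, and intervals of Dnah1 and Dnah3 overlapped. Cfap161 had 207 CPM in high-fat and 490.3 CPM in unlabelled-diet pachytene cells, a log2 ratio of -1.24. Dnah10 had 19.3 CPM in the high-fat and 40.4 CPM in the unlabelled-diet library in the diplotene and dividing class, a log2 ratio of -1.07, which was -0.15 without centring of the libraries before clustering.
Cfap100, known in Chlamydomonas as part of a complex that regulates an inner dynein arm, was highest in late round spermatids. It had 107 CPM in the high-fat and 53.1 CPM in the unlabelled-diet library there, a ratio of 2.02 (1.86 to 2.20). Dnah1, an inner arm chain, had 52.3 CPM in high-fat and 15.6 CPM in unlabelled-diet middle round spermatids, a ratio of 3.34 (3.08 to 3.63). In pachytene cells its ratio was 1.34 (1.26 to 1.41), so its libraries were closer where its level was highest. Dnah3 had 59.7 CPM in high-fat and 24.6 CPM in unlabelled-diet middle round spermatids, a log2 ratio of 1.28, which was 0.80 at Leiden resolution 2. Annotated genes on the opposite strand share exonic bases with Dnah1, Dnah3, Dnah10 and Cfap100, and whether the counting used strand is not given in the sources used here.

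**Figure D5:**
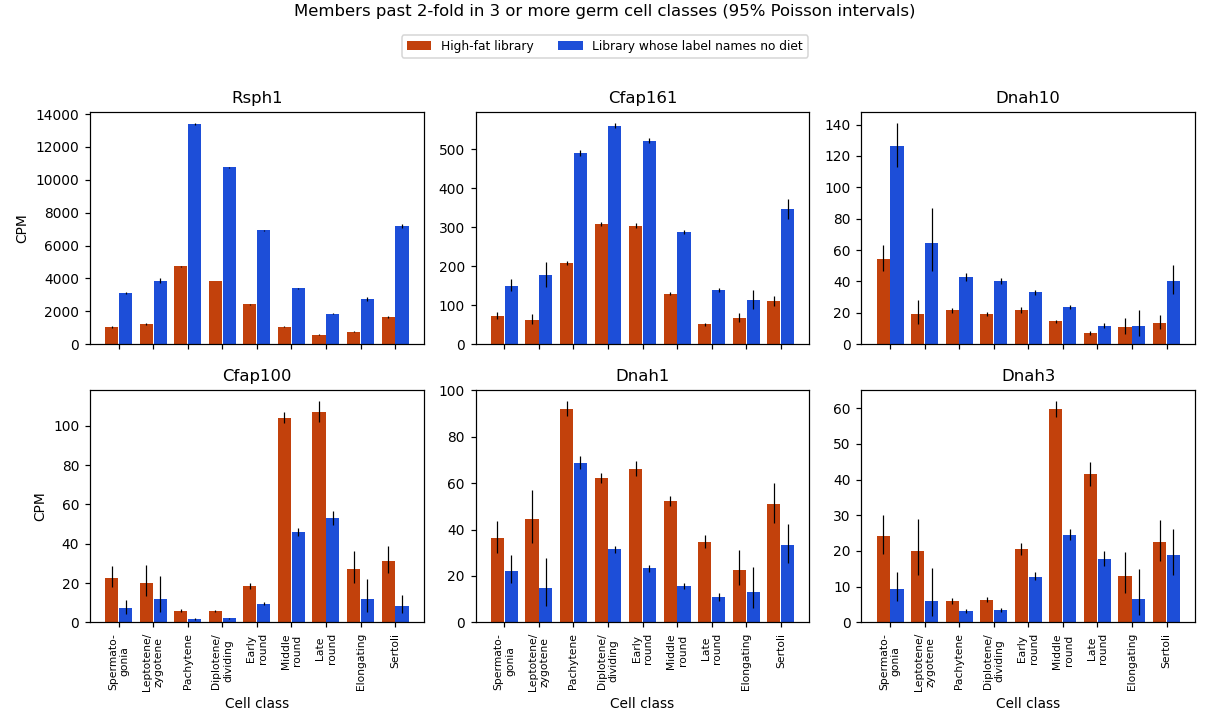
CPM with 95% Poisson intervals of the 6 genes past 2-fold in at least 3 germ cell classes, in 8 germ cell classes and Sertoli cells, high-fat library in orange left of the unlabelled-diet library in blue. The orange bars of Rsph1 are below the blue ones in every class shown, Sertoli cells included, and those of Cfap100 and Dnah1 are above.

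The remaining 8 of the 14 genes were past 2-fold in a single class each, all but Dnah5 lower in the high-fat library. Cfap99 had 4.35 CPM in high-fat and 23.4 CPM in unlabelled-diet late round spermatids, a ratio of 0.185 (0.141 to 0.241). In pachytene cells its values were 12.4 CPM (high-fat) and 11.2 CPM (unlabelled-diet), a ratio of 1.11 (0.958 to 1.28), so the gap was not seen there. Dnah11 had a log2 ratio of -1.70 in middle round spermatids, from 0.464 CPM in the high-fat and 1.51 CPM in the unlabelled-diet library. Dnah5 was higher, with a log2 ratio of 1.29 in early round spermatids (0.63 with each library clustered alone), from 2.15 CPM in the high-fat and 0.880 CPM in the unlabelled-diet library. Drc1 and Cfap44 were lower in elongating spermatids, with log2 ratios of -1.37 and -1.18, but with each library clustered alone these were within 2-fold, at -0.61 and -0.84. Cfap44, from 25 high-fat and 26 unlabelled-diet counts, was under its Sertoli level in elongating spermatids of both libraries. Dnaic2, Cfap70 and Drc7 were lower in leptotene and zygotene cells, with log2 ratios of -1.34, -1.29 and -1.23. Dnaic2, from 38 high-fat and 46 unlabelled-diet counts, and Cfap70 were under the Sertoli level there in both libraries. Drc7 was at 1.135 times that level in the high-fat and 0.993 times in the unlabelled-diet library. Levels at or under it are not read here as expression. Dnah8 was lower without passing 2-fold, with 547 CPM in high-fat and 941 CPM in unlabelled-diet pachytene cells.

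Genes that work with these proteins were counted from 7 lists. Among all 19819 genes measured in at least 1 germ cell class, 20.6% were past 2-fold higher and 13.8% lower in some class, and the counts below are of the same kind. Of 15 dynein arm assembly factors, which load arms in the cytoplasm, 11 were highest in spermatocytes and 3 in round spermatids. Dnaaf1 had 704 CPM in high-fat and 742 CPM in unlabelled-diet pachytene cells, and Zmynd10 had 643 CPM (high-fat) and 786 CPM (unlabelled-diet). In this list 1 gene was past 2-fold higher in some class and 1 lower. Of 16 docking, ruler, nexin link and central pair genes, 8 were highest in spermatocytes and 8 in round spermatids, with 0 past 2-fold higher and 4 lower. Ttc25, an outer arm docking protein, had 349.8 CPM in high-fat and 383 CPM in unlabelled-diet early round spermatids, and Ccdc65, a nexin link protein, had 359 CPM (high-fat) and 343 CPM (unlabelled-diet). Of 10 further proteins inside the doublets, 2 were highest in spermatocytes and 7 in round spermatids, with 2 past 2-fold higher and 0 lower. Mns1, one of them, had 658 CPM in high-fat and 692 CPM in unlabelled-diet pachytene cells.
Of 28 intraflagellar transport genes, which carry parts along the growing axoneme, 17 were highest in spermatocytes and 9 in round spermatids, with 0 past 2-fold higher and 3 lower. Ift43 had 678 CPM in high-fat and 695 CPM in unlabelled-diet early round spermatids, and Ift22 had 352 CPM (high-fat) and 287 CPM (unlabelled-diet). Of 13 placed transcription factors, 7 were highest in spermatocytes and 6 in round spermatids, and of the 12 measured 0 were past 2-fold either way. Mybl1 of this list was also among the markers that named the pachytene class, so its place is not independent of the naming. Crem, the activator of spermatid genes, had 718 CPM in high-fat and 733 CPM in unlabelled-diet middle round spermatids, and Tcfl5 had 229.5 CPM (high-fat) and 267 CPM (unlabelled-diet) in pachytene cells.
Of 12 outer dense fibre and fibrous sheath genes, which surround the axoneme, 1 was highest in spermatocytes, 7 in round and 4 in elongating spermatids, with 5 past 2-fold higher and 0 lower. Odf1, Akap4 and Gapdhs of this list were also among the markers that named the elongating class, so their place is not independent of the naming. Odf2 had 3441 CPM in high-fat and 3502 CPM in unlabelled-diet elongating spermatids, and Ropn1l had 6478 CPM (high-fat) and 5518 CPM (unlabelled-diet) in the diplotene and dividing class. Of 8 cytoplasmic dynein genes, 2 were highest in spermatogonia, 4 in spermatocytes, 2 in round and 0 in elongating spermatids, with 0 past 2-fold higher and 1 lower. Dynll2 had 2714 CPM in high-fat and 2241 CPM in unlabelled-diet elongating spermatids, which were not its highest class. Dynll1 had 1530 CPM (high-fat) and 1389 CPM (unlabelled-diet) in late round spermatids.

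The annotation limits what some values can say. Of the 74 genes, 32 share exonic bases with another annotated gene, 3 of them with a gene on the same strand and 30 on the opposite strand.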

How the data were processed

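The study made droplet single-cell RNA libraries from dissociated mouse testis with a DNBelab C kit, per the labels' protocols. The deposited files hold UMI counts per gene and barcode, and per the file headers they were written by PISA 1.0. The submitters' processing notes name Cell Ranger 2.1.1. Which aligner and genome build were used, and whether counting used strand, is not given in the sources used here. No batch is named in the labels.

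Barcodes with at least 500 UMIs, 250 genes and at most 20% mitochondrial UMIs were kept, and doublets called by Scrublet (scanpy 1.11.5, expected rate 6%) were left out, 462 (3.65%) in the high-fat and 518 (3.75%) in the unlabelled-diet library. Log values of 2000 variable genes, without the genes described and those of the 7 lists, were centred within each library, reduced to 50 components and clustered from 20 neighbours with leidenalg 0.10.2 at resolution 1. Clusters were named from markers. A shallow cluster also needed a mean marker log2 fold of 1, a threshold set after the clusters were seen, and 3 clusters stayed unnamed. Within each library the UMI counts of a class were added up and scaled to CPM. Intervals are exact Poisson for levels, conditional binomial for ratios and Clopper-Pearson for shares, at 95%, and cover counting error only. Ratios needed 50 counts over both libraries, and a library at 0 was set to 3 counts. No p-value was computed. The ratio step was tested on simulated data.

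Named with values were all dynein chains, tektins, Drc and Spag genes, the most counted Cfap (8) and Rsph (5) genes, up to 5 genes per class with the largest ratio past 2-fold, genes past it in 3 or more classes, those highest in a somatic class, and the 2 most counted genes of each list. One of the list genes this rule names is not reported here. Others named were chosen after their values were seen. The members and lists were chosen with earlier results of these data known.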

Additional observations from a re-analysis of the deposited data

Results flagged for a closer look

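The unnamed cluster 11, of 473 high-fat and 806 unlabelled-diet barcodes, entered no comparison, yet 32 of the 74 genes had a higher level there than in every germ cell class, in both libraries. All 32 are among the 73 genes placed, or 43.8%, against 17.6% of the 22927 genes placed. Its median depth was 3006 UMIs in the high-fat and 1926 UMIs in the unlabelled-diet library. Dnah14 had 189 CPM in the high-fat and 252 CPM in the unlabelled-diet library there, against 164 CPM (high-fat) and 194 CPM (unlabelled-diet) in its highest germ cell class. Of the Dnah symbols, 12 were above every germ cell class in the high-fat and 13 in the unlabelled-diet library, and of the tektins 0 in either. Over 73 genes the Spearman correlation of this excess with the length of the gene in the genome was 0.689 in the high-fat and 0.728 in the unlabelled-diet library, a description of points that share a library and depth. The cause was not tested.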

How the results depend on the processing

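No paired analysis was possible because each group has 1 library. Without centring, the median log2 ratio was -0.0087 in pachytene cells, -0.33 in middle and -0.42 in late round spermatids, and 25 gene and class pairs were past 2-fold higher and 41 lower. Cfap100 in the diplotene and dividing class then reversed, to a log2 ratio of -0.36, against 1.57 as reported. With each library clustered alone the late round median was -0.026 and no leptotene and zygotene value could be had, and with 4000 variable genes the leptotene and zygotene median was -0.058. With barcodes of at least 2000 UMIs that median was 0.010, and no elongating class existed. With cells thinned to 2000 UMIs the spermatogonia median was 0.15, the leptotene and zygotene median -0.072, and 25 pairs were higher. With free RNA subtracted these were 0.58, 0.13 and 35, with 18 pairs lower, against 14 higher and 23 lower as reported. In spermatogonia no value of Cfap161, Dnah3 or Rsph1 then remained. Scaling to the median of all genes gave -0.16 in the diplotene and dividing class. A minimum of 10 counts gave 24 pairs higher and one of 200 gave 9. A ratio of 1.5 gave 31 pairs higher and 72 lower. The cause of these shifts was not tested. Over 9 alternatives pachytene led for 25 to 31 genes, spermatocytes for 31 to 41 and round spermatids for 29 to 36. Round spermatids led for more genes than spermatocytes only with free RNA subtracted, a step that could only lower spermatocytes against spermatids. Of 371 ratios of named genes under the alternatives, 370 kept their sign and 352 were still past 2-fold. This tally overstates how well they held. A minimum of 10 or 200 counts cannot change a ratio that is still measured, and ratios lost under an alternative are not among the 371. The spermatogonia median, 0.04 as reported, was also -0.094 with doublets kept, -0.068 with each library clustered alone, -0.015 with a minimum of 200 counts and -0.00040 with 4000 variable genes. Drc1 in elongating spermatids was within 2-fold at -0.86 thinned and -0.88 with cells weighted equally, and Cfap161 in spermatogonia at -0.87 with at least 2000 UMIs. Cfap100 was within 2-fold at 0.89 in middle round spermatids with each library clustered alone. Fewer genes had enough counts in leptotene and zygotene cells (59) and elongating spermatids (49) than in middle round spermatids (72).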
